A study of Mus musculus with 12 samples.

Results

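SOX2-OFF cells, which lacked their endogenous SOX2 and had been given CHIR99021, were compared here with EpiLC (epiblast-like cells), which kept SOX2 and received no CHIR99021. The comparison rests on 6 of the 12 RNA-seq libraries of the series, 3 SOX2-OFF and 3 EpiLC, taken by their labels. It covers all 24736 genes of the deposited table, of which 14196 had enough counts for a test. All cultures were mouse embryonic stem cells differentiated for 72 h in N2B27 medium with bFGF (10 ng/ml) and LGK974 (5 µM), an inhibitor of the enzyme that makes WNT ligands ready for secretion. EpiLC were wild type, of the HM1 TetON line from which the other line was made. SOX2-OFF came from the SOX2 TetON line, labelled Sox2-/-. It is a clone with disrupted Sox2 alleles and a doxycycline-dependent Sox2 transgene in the Hprt locus. Per the paper, the parental HM1 TetON line already expressed the transactivator from Rosa26, so both lines carried it. The SOX2 TetON stem cells had been kept in serum and LIF with 1 µg/ml doxycycline. Doxycycline was then withdrawn for the 72 h of differentiation, and CHIR99021 was present from day 2 to day 3. Both lines had been propagated on fibroblast feeders that were removed by replating. CHIR99021, SOX2 and the cell line thus differed together between the groups, and their parts cannot be told apart, because no SOX2 TetON culture without CHIR99021 was analysed here. For orientation, levels are also given in CEpiLC (caudal epiblast-like cells, wild type with CHIR99021 from day 2 to day 3) and in SOX2-ON (the SOX2 TetON line with CHIR99021 and doxycycline throughout).

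The epiblast is the layer of the early embryo from which the body forms. WNT signalling acts by keeping β-catenin from being degraded, so that it can join TCF/LEF factors on DNA and switch on their targets; CHIR99021 has this effect without a ligand, by inhibiting the kinase GSK3. In the posterior epiblast, WNT together with Nodal and BMP signals induces the T-box factors T and Eomes and the primitive streak, through which cells leave to become mesoderm and endoderm, whereas SOX2, a SOXB1 factor, is a core regulator of pluripotent and neural progenitor cells.

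Libraries of the groups compared held 11306400 to 20915674 expected counts, and across genes, which are not independent replicates, r of log2 CPM within a group was 0.988 to 0.992. The labels call the replicates biological without naming separate cultures, so the p-values measure the spread between these samples. Rn45s, the ribosomal precursor, held 0.149 to 1.62% of all counts in EpiLC and 0.209 to 3.17% in SOX2-OFF, the highest share being that of SOX2-OFF replicate 3. Fibroblast markers, from a list of 10 for the feeders, summed to 60.6 to 125 TPM in EpiLC and 25.2 to 47.6 TPM in SOX2-OFF, and their part in the results was not tested. Transcripts of genes on 3 chromosomes were shifted as a whole. Over genes averaging 4 log2 CPM or more (CPM being counts scaled to the library), the median log2 fold change of SOX2-OFF over EpiLC was 0.59 over 392 genes of chromosome 6, 0.60 over 489 genes of chromosome 8 and -0.50 over 704 genes of chromosome 11. On the other autosomes the median lay between -0.03 and 0.06, and on chromosome X it was 0.12. In CEpiLC over EpiLC, where the line was the same, the chromosome medians lay between -0.04 and 0.08. Of the 14196 tested genes, 2593 lay on chromosomes 6, 8 and 11. The part of the shift in any single gene was not tested, but the calls, fold changes, list medians and list counts were recomputed with the line's shift removed. The genes nearest to a marker by group means and the promoter motif shares were not recomputed. That shift was the median difference per chromosome of both SOX2 TetON groups from both wild-type groups, less the median over all these genes. It was 0.56, 0.60 and -0.56 on the log2 scale for chromosomes 6, 8 and 11. A gene whose call or direction changed on removal is named as such.

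**Figure D1:**
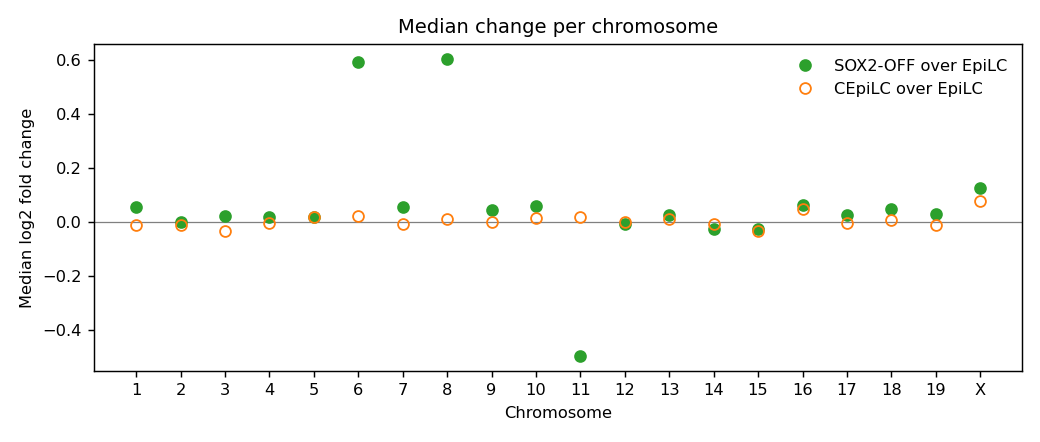
Median log2 fold change per chromosome (vertical axis) for genes averaging 4 log2 CPM or more, for SOX2-OFF over EpiLC (filled circles) and CEpiLC over EpiLC (open circles). SOX2-OFF lay near 0.6 on chromosomes 6 and 8 and near -0.5 on chromosome 11, while the open circles lay near 0 throughout.

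The targeted gene was examined first. The guide that disrupted the endogenous alleles and the base that spared the transgene are shown because they define the genotype of the SOX2-OFF line; the site lies in the coding part of the only exon of Sox2 (chr3:34650451-34650470 in GRCm38, plus strand). In the first line the capitals mark the PAM, the short motif Cas9 needs beside its target, and in the other lines they mark the base that differs, G54A, counted from 1 at the start of the coding sequence.
guide site in Sox2: gggcccgcagcaagcttCGG
wild-type Sox2: ccgcagcaagcttcGgggggcggcggc
transgene primer: ccgcagcaagcttcAgggggcggcggc
The change turned codon 18 from TCG to TCA, both serine codons, and the PAM from CGG to CAG. Sox2 (chr3:34649995-34652461 in GRCm38.p6) read 171, 119 and 121 TPM (a level scaled for the size of the library and the length of the gene) in the 3 EpiLC libraries and 21.2, 15.9 and 12.3 TPM in the 3 SOX2-OFF libraries. All SOX2-OFF values lay below all EpiLC values. The mean went from 137 ± 29.7 to 16.5 ± 4.48 TPM, and Sox2 fell by 3.02 on the log2 scale (± 0.22 SE, adjusted p = 1.2e-07 by edgeR). Reads from the disrupted gene and from the transgene are not told apart in these counts, so the remaining transcripts need not encode SOX2. The paper reports low levels of SOX2 in SOX2-OFF cells given CHIR99021, so they were not wholly without it. For comparison, Sox2 read 13.7, 9.66 and 7.78 TPM in CEpiLC and 215, 173 and 174 TPM in SOX2-ON. SOX2-OFF was called higher than CEpiLC (log2 difference 0.65, ± 0.24 SE, adjusted p = 0.037 by edgeR), a call lost with limma-voom and without SOX2-OFF replicate 1 or 2 or CEpiLC replicate 2 or 3. Among 11121 genes averaging 2 log2 CPM or more, the 5 whose 4 group means lay nearest to those of Sox2 were Slc7a3, Myb, Insm1, Enpp3 and Calcr, at distances of 1.10 to 1.26 log2 CPM. Slc7a3, a transporter of cationic amino acids, read 185, 198 and 194 TPM in EpiLC and 25.9, 27.01 and 24.7 TPM in SOX2-OFF, and the transcription factor gene Myb read 15.3, 22.04 and 29.1 and 1.73, 1.45 and 1.59 TPM.

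The relatives of Sox2 in the SOXB1 subfamily were lower as well. Sox3, a SOXB1 relative that is coexpressed with Sox2 in epiblast and neural plate, read 49.01, 52.99 and 63.7 TPM in EpiLC and 3.81, 3.13 and 2.2 TPM in SOX2-OFF, and fell by 4.12 on the log2 scale (± 0.28 SE, adjusted p = 8.3e-08 by edgeR). The neural plate gene Sox1 read 3.78, 2.23 and 1.22 TPM in EpiLC and 0.14, 0.1 and 0.09 TPM in SOX2-OFF, a difference of -4.37. In neither gene did the groups overlap. Of the 5 SOXB genes on the list, 3 fell and 1, Sox14, passed the test upwards. Sox14 read at most 1.19 TPM in any SOX2-OFF library (edgeR adjusted p = 0.038), and its call was lost with DESeq2, with limma-voom, with only the 6 libraries fitted, and when EpiLC replicate 1 or 2 or SOX2-OFF replicate 1 or 2 was left out. Hprt (chrX:52988078-53021660), the locus that carries the transgene, read 0.55, 1.01 and 1.21 TPM in EpiLC and 12.97, 17.8 and 14.6 TPM in SOX2-OFF. It also read 21.1, 23.3 and 15.7 TPM in SOX2-ON and 1.57, 2 and 1.35 TPM in CEpiLC, so that both groups of the SOX2 TetON line stood above both wild-type groups.

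Across all genes, 8819 of 14196 (62.1%) passed an adjusted p of at most 0.05 in SOX2-OFF against EpiLC (quasi-likelihood test of edgeR, Benjamini-Hochberg adjusted). Of these, 4476 genes (31.5% of those tested) were higher and 4343 (30.6%) were lower. The counts of each gene list over EpiLC below stand against these shares. With a log2 fold change over 1 as well, 1513 genes (10.7%) were higher and 1584 (11.2%) were lower. The 3 values of one group lay clear of the 3 values of the other for 9747 genes (68.7%), so groups without overlap were the common case here. The median log2 fold change over all genes tested was 0.01. In such bulk libraries, fewer cells that express a gene and less RNA of it per cell cannot be told apart. On chromosomes 6, 8 and 11, 78.1% of the genes were called, against 58.5% elsewhere. With the chromosome shift removed, 8273 genes were called in all, and 58.9% of those on the 3 chromosomes. The shift was estimated from libraries that include these 6, so a fall towards the share elsewhere was built in. The comparison of CEpiLC with EpiLC, which uses the same EpiLC libraries, called 5994 genes (42.2%), 22.1% of those tested being higher and 20.1% lower. That of SOX2-OFF with CEpiLC, which tests the difference between the CHIR99021-treated groups, called 6885 (48.5%), with 23.6% higher and 24.9% lower. Counts of list genes against CEpiLC below stand against these last shares. A gene that entered the test through CEpiLC is likewise more readily called lower there.

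The marker gene T was among the genes that rose most. Among called genes without overlap and averaging 2 log2 CPM or more, the 10 with the highest fitted log2 fold change were Sprr2a1, Sprr2a2, Sprr2a3, Evx1os, Cdx1, Msgn1, Sp5, Evx1, Hoxb1 and T. All of these but T were at or under 3 counts in every EpiLC library, so their fitted fold changes and their order depend on the prior count of the fit. Sprr2a1, Sprr2a2 and Sprr2a3, which encode small proline-rich proteins of the epidermis, are near-identical copies. Their reads were shared between them, and their separate values are uncertain. Evx1os is transcribed from the opposite strand beside Evx1. For T (also called Brachyury; chr17:8434423-8442496), the T-box factor that marks the streak, the 3 EpiLC libraries read 0.68, 0.52 and 0.45 TPM and the 3 SOX2-OFF libraries 804, 792 and 830.0 TPM. The groups were far apart, and T gave a log2 fold change of 10.49 (± 0.30 SE, adjusted p = 1.2e-10 by edgeR). T also read 474, 768 and 892 TPM in CEpiLC and 145, 138 and 172 TPM in SOX2-ON, and SOX2-OFF did not differ from CEpiLC at the threshold (log2 difference 0.20, ± 0.17 SE, adjusted p = 0.33 by edgeR) unless CEpiLC replicate 3 was left out (log2 difference 0.41).

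The genes whose group means lay nearest to those of T were Sp5 (distance 0.85 log2 CPM), Evx1 (1.03) and Cdx1 (1.3), followed by Sprr2a1 and Sprr2a2 (1.41 each). Sp5, a zinc-finger factor and direct target of TCF/LEF, was at or under 3 counts in every EpiLC library and read 123, 104 and 141 TPM in SOX2-OFF, at least 731-fold higher. Likewise Evx1, a homeobox gene of the posterior streak, read 68.5, 60.9 and 86.7 TPM in SOX2-OFF and was at least 608-fold higher. Cdx1, a caudal homeobox gene, was listed at 0 TPM in all EpiLC libraries, read 53.1, 46.9 and 47.6 TPM in SOX2-OFF and was at least 240.0-fold higher. These bounds compare the mean of SOX2-OFF with a level of 3 counts in each EpiLC library. The promoters of T, Sp5 and Evx1 are shown because these genes moved together. So is that of Msgn1, a presomitic mesoderm factor among the 10 largest fitted rises. Each window runs from 250 bases before the start site to 50 bases after it in the direction of the gene (RefSeq, GRCm38.p6), and capitals mark the motifs searched: CTTTGAT for TCF/LEF, TCACACC for T-box factors, CATTGTT for SOX factors and ATTTGCAT, the octamer bound by OCT factors, each on both strands.
T, chr17:8434173-8434472, plus strand: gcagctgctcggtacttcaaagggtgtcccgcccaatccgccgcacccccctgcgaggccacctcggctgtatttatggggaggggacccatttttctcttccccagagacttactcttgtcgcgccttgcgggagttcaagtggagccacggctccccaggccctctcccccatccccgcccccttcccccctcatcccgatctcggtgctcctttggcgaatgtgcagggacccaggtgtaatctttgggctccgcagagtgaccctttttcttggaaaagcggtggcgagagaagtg
Sp5, chr2:70474673-70474972, plus strand: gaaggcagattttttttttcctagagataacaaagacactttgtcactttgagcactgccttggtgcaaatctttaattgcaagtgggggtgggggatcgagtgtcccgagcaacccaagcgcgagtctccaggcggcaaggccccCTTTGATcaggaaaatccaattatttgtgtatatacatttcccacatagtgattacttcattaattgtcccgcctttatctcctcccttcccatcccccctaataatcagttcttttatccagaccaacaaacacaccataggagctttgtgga
Evx1, chr6:52313248-52313547, plus strand: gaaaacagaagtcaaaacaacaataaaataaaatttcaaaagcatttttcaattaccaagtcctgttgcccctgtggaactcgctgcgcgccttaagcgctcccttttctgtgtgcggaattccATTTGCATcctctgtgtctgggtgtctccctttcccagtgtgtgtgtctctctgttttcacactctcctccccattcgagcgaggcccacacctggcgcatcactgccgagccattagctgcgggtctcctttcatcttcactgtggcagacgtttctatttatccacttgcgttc
Msgn1, chr12:11208899-11209198, minus strand: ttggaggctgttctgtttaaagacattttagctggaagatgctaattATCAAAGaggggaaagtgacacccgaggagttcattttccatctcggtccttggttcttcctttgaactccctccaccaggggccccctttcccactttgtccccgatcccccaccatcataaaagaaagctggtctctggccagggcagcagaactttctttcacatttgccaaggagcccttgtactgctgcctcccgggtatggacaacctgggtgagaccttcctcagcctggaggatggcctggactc
Sp5 held CTTTGAT in the sense direction, its first base 104 bases before the start site, and Msgn1 held it in the opposite direction at 203 bases. Evx1 held the octamer at 126 bases before its start site, and the window of T held none of the 4 exact motifs. Variant forms of these sites were not searched, so a window without a motif here may still hold one. Over 32851 windows of the same length, CTTTGAT was found in 3.73%, TCACACC in 3.98%, CATTGTT in 3.78% and ATTTGCAT in 1.74%. Among genes, CTTTGAT was in the promoter of 47 of 1100 genes that were called higher by a log2 fold change over 1 (4.27%), of 37 of 1156 called lower by as much (3.20%), and of 332 of 11004 tested genes with a promoter sequence (3.02%). In the same order the shares were 5.82, 3.89 and 4.16% for TCACACC, 2.82, 2.94 and 2.35% for CATTGTT and 3.45, 2.42 and 1.73% for ATTTGCAT.

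**Figure D2:**
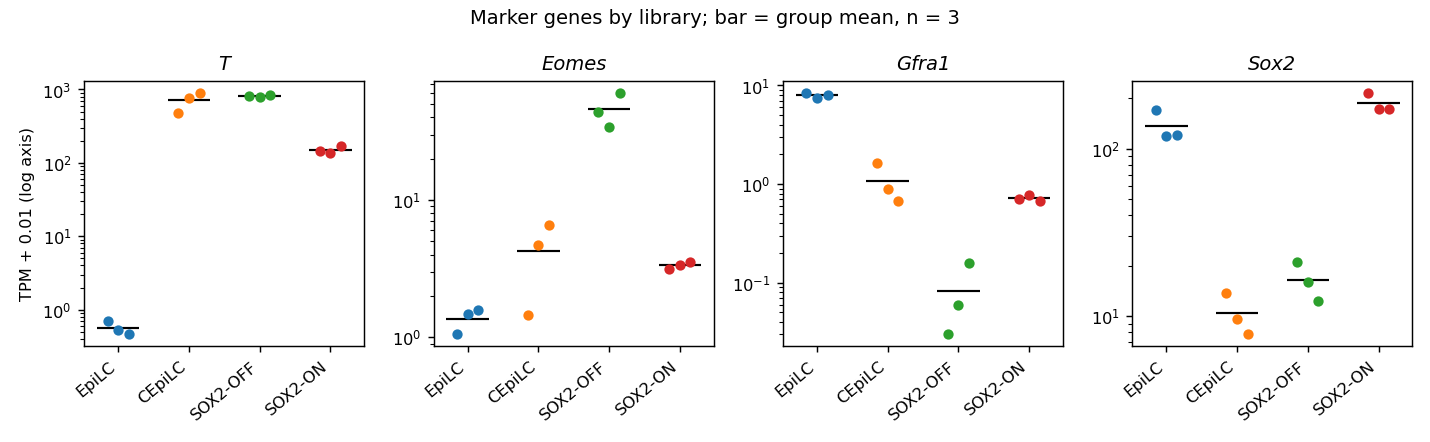
Level of T, Eomes, Gfra1 and Sox2 as TPM plus 0.01 on a log axis in each of the 12 libraries, by group, with a bar at the group mean. Each SOX2-OFF library lay above every EpiLC library for T and Eomes, and below every one for Gfra1 and Sox2.

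All 10 streak factors on the list rose (31.5% of all genes were called higher), with a median log2 fold change of 7.13, or 6.96 with the 4 genes at the counting floor set to their lower bounds, against 0.01 over all genes. Beside T, Sp5, Evx1 and Cdx1, the list holds the ligands Wnt3, Wnt3a and Fgf8, the repressor Snai1, which drives cells out of the epithelium, and Mixl1 and Eomes of the anterior streak. Mixl1, a homeobox factor, read 0.81, 0.32 and 1.19 TPM in EpiLC and 157, 120.4 and 203 TPM in SOX2-OFF, with a log2 fold change of 7.78 (± 0.62 SE, adjusted p = 2.8e-07 by edgeR). Eomes (chr9:118478186-118486132), the T-box factor needed for definitive endoderm and early mesoderm, read 1.04, 1.47 and 1.57 TPM in EpiLC and 43.5, 34.1 and 60.1 TPM in SOX2-OFF. The log2 fold change of Eomes was 5.11 (± 0.42 SE, adjusted p = 3.7e-07 by edgeR), and no values overlapped. Eomes read 1.44, 4.73 and 6.59 TPM in CEpiLC and 3.14, 3.36 and 3.55 TPM in SOX2-ON, and SOX2-OFF exceeded CEpiLC by 3.55 on the log2 scale (± 0.37 SE, adjusted p = 6.4e-06 by edgeR). Genes near to Eomes by their group means included Tgm1, Ppp4r4, Ccno and Pdgfrl, at distances of 1.53 to 1.62 log2 CPM.

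Anterior streak and mesendoderm genes rose nearly throughout. Of 18 tested members (19 listed), 16 rose, 1 (Chrd) fell and 1 (Mesp2) did not pass unless EpiLC replicate 3 was left out, with a median of 5.79 (5.48 with 3 bounds). The call of Chrd, a BMP inhibitor at about 1 to 2 TPM, was lost without EpiLC replicate 2, SOX2-OFF replicate 1 or SOX2-OFF replicate 3. Mesp1, the factor that starts cardiac mesoderm, was listed at 0 TPM in EpiLC, read 10.03, 7.37 and 17.2 TPM in SOX2-OFF and was at least 31.96-fold higher. Dkk1, a secreted WNT inhibitor of the anterior streak and endoderm, read 41.5, 44.3 and 60.3 TPM and was at least 313-fold higher. A group of endoderm factors was high in SOX2-OFF and near 0 in EpiLC. The mean of Gata4 went from 0.577 ± 0.136 to 26.7 ± 2.89 TPM, that of Gata6 from 0.307 ± 0.214 to 21.1 ± 1.74 TPM and that of Sox17 from 0.153 ± 0.143 to 14.4 ± 2.53 TPM. Gata4 read 1.36 ± 1.01 TPM in CEpiLC and 18.2 ± 6.28 TPM in SOX2-ON, and Sox17 read 0.407 ± 0.23 and 10.3 ± 5.1 TPM there. In these genes the SOX2-OFF level exceeded that of CEpiLC (log2 differences of 4.55 for Gata4, 4.53 for Gata6 and 5.27 for Sox17). SOX2-ON, the same line with doxycycline, stood high too. On the whole list, SOX2-OFF exceeded CEpiLC in 13 of 18 genes, where 23.6% of all genes were called higher in that comparison. The count ranged from 11 with DESeq2 to 15 with limma-voom.

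Genes of later mesoderm rose for the most part. Of 12 tested paraxial mesoderm genes, 9 rose and 1 fell, with a median log2 fold change of 3.01. Msgn1 was listed at 0 TPM in EpiLC and read 95.9, 80.3 and 168 TPM in SOX2-OFF, at least 133-fold higher. Aplnr, the apelin receptor of migrating mesoderm, read 0.26, 0.17 and 0.08 and 17.9, 24.3 and 29.7 TPM in the groups, and Rspo3, a secreted enhancer of WNT signalling, read 0.85, 0.7 and 1.13 and 32.7, 40.5 and 53.3 TPM. Each of these had no overlap and an edgeR adjusted p of 6e-05 for Msgn1, 3.6e-07 for Aplnr and 6.3e-07 for Rspo3. The gene that fell, Meox1, was under 1 TPM in every library, and its call was lost when EpiLC replicate 3, SOX2-OFF replicate 2 or SOX2-OFF replicate 3 was left out or the chromosome shift removed, and it had too few counts for the stricter count filter. Against CEpiLC, the number of genes lower in SOX2-OFF was 7, and 3 when SOX2-OFF replicate 1, SOX2-OFF replicate 2 or CEpiLC replicate 3 was left out. It was also 3 with only the 6 libraries fitted or a threshold of 0.01, and 4 with limma-voom. The segmentation clock gene Hes7, whose rise over EpiLC was not called by limma-voom, showed the largest of these gaps, with a mean of 63.2 ± 45.2 TPM in CEpiLC and 4.42 ± 2.34 TPM in SOX2-OFF (log2 difference -3.86, edgeR adjusted p = 5.2e-05). In the lateral, cardiac and vascular list, 9 of 12 tested genes rose and 2 fell. Pdgfra, a receptor of migrating mesoderm and primitive endoderm, read 0.35, 0.46 and 0.63 TPM in EpiLC and 24.7, 29.4 and 29.6 TPM in SOX2-OFF. Both genes that fell, the blood and vessel regulators Etv2 and Tal1, were lower in SOX2-OFF than in either wild-type group. Etv2 had means of 7.4 ± 1.09 TPM in EpiLC, 13.2 ± 3.68 TPM in CEpiLC and 2.37 ± 1.15 TPM in SOX2-OFF.

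Caudal epiblast and Hox genes rose from EpiLC, and most of them stayed under their CEpiLC levels. Of the 9 caudal factors, 8 rose and 1, Greb1, did not pass (median 5.67, or 5.29 with 3 bounds). Cdx2, which with Cdx1 and Cdx4 sets the caudal Hox code, read 0.18, 0 and 0.21 TPM in EpiLC, 31.9, 29.2 and 35.9 TPM in SOX2-OFF and 314, 169 and 192 TPM in CEpiLC. Its log2 fold change over EpiLC was 7.96 (± 0.50 SE, adjusted p = 3.8e-08 by edgeR), and it was lower than in CEpiLC (log2 difference -2.79, edgeR adjusted p = 7.3e-07). Nkx1-2, a homeobox gene of caudal progenitors, had means of 0.887 ± 0.221 TPM in EpiLC, 43.1 ± 9.37 TPM in SOX2-OFF and 344 ± 94.7 TPM in CEpiLC. Altogether 7 of the 9 caudal factors stood lower than in CEpiLC, and the other 2, Cdx1 and Evx1, gave edgeR adjusted p of 0.29 and 0.15. Without CEpiLC replicate 2, Cdx1 was called lower (-0.53), and without CEpiLC replicate 3, Evx1 was called higher (0.86).

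Hox genes are numbered by their order in each cluster, which follows their order along the body axis. Of 13 tested genes of paralogue groups 1 to 5, 12 rose from EpiLC and 1, Hoxd4, did not pass, with a median of 5.33. As 11 of them were at the floor in EpiLC, the median with these genes at their bounds was 3.48. These 11 entered the test through other groups and could not be called lower, so the count of rises is no test of direction. Hoxb1 had the largest fitted rise of the list, with 0, 0.05 and 0.15 TPM in EpiLC and 75.1, 75.6 and 128 TPM in SOX2-OFF. Against CEpiLC, 11 of these 13 genes stood lower in SOX2-OFF, and 7 did without SOX2-OFF replicate 1 or 2 or at a threshold of 0.01. In the list of groups 6 to 13 the median rise was smaller. Of 24 listed, 12 had enough counts for a test, and 8 of these rose (median 2.68, or 2.01 with 8 bounds). Of the same 12, SOX2-OFF had lower levels of 6 than CEpiLC did, with and without each library of both groups, and higher levels of 2. The count of higher genes ranged from 1 to 4 over the alternatives. Genes could pass the count filter through high CEpiLC levels, which favours calls below CEpiLC. How far it did so here was not tested. Hoxb9 had means of 0.69 ± 0.433 TPM in EpiLC and 1.55 ± 0.207 TPM in SOX2-OFF but 99.4 ± 56.7 TPM in CEpiLC. Between SOX2-OFF and EpiLC it did not pass (log2 fold change 1.26, edgeR adjusted p = 0.2) unless only the 6 libraries were fitted, while SOX2-OFF lay below CEpiLC by a log2 difference of -6.02 (± 0.51 SE, adjusted p = 1.1e-06 by edgeR). The Hoxa genes are on chromosome 6 and the Hoxb genes on chromosome 11, both of which were shifted. Hoxc13, on chromosome 15, was the called gene of this list with the largest fitted rise and read 0.08, 0.04 and 0.12 TPM in EpiLC, 0.09, 0.09 and 0.23 TPM in CEpiLC and 1.74, 1.62 and 2.58 TPM in SOX2-OFF. SOX2-ON was high for it too, at 1.53, 1.21 and 3.29 TPM.

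**Figure D3:**
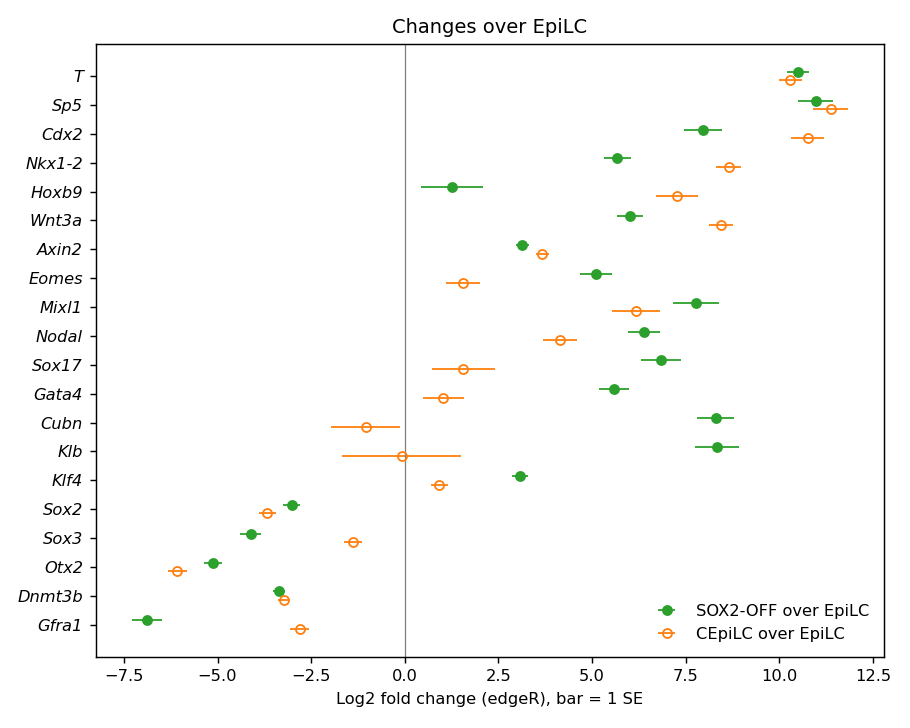
Log2 fold change over EpiLC (horizontal axis) of named genes in SOX2-OFF (filled circles) and in CEpiLC (open circles), with bars of 1 standard error, both set against the same 3 EpiLC libraries. T and Sp5 sat at similar values for both groups, Cdx2, Nkx1-2 and Hoxb9 were farther right in CEpiLC, and Eomes, Sox17, Cubn and Klb were farther right in SOX2-OFF.

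Among WNT pathway genes, the feedback targets rose almost throughout. Of 11 tested feedback targets, genes that β-catenin switches on and whose products restrain or tune the pathway, 10 rose and 1 (Nkd2) fell, with a median log2 fold change of 3.14. Axin2, a scaffold of the complex that degrades β-catenin, lies on chromosome 11, which was shifted. It went from a mean of 10.8 ± 1.7 TPM in EpiLC to 93.6 ± 10.4 TPM in SOX2-OFF. The log2 fold change of Axin2 was 3.14 (± 0.17 SE, adjusted p = 1e-08 by edgeR). Dkk4, a secreted inhibitor, was listed at 0 TPM in EpiLC, read 16.8, 6.25 and 5.01 TPM in SOX2-OFF and was at least 32.5-fold higher. Nkd2, which binds Dishevelled, fell from 5.83, 6.29 and 6.5 to 3.89, 2.96 and 3.89 TPM. Against CEpiLC, Notum (an enzyme that inactivates WNT ligands) was lower in SOX2-OFF (log2 difference -2.32), and Dkk1, Dkk4 and Apcdd1 were higher (3.35, 2.31 and 0.91). Axin2 was lower too (-0.53), but it was not called without CEpiLC replicate 1 (-0.36), and with the chromosome shift removed the difference was 0.03.

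Among 11 genes of TCF/LEF factors, β-catenin and their co-factors, which carry the signal to DNA or hold targets silent, 5 rose, 4 fell and 2 did not pass (median 0.02). For comparison, 31.5% of all genes were called higher and 30.6% lower. Lef1 read 31.1, 26.9 and 37.5 TPM in EpiLC and 76.4, 69.3 and 87.7 TPM in SOX2-OFF and rose by 1.31 on the log2 scale. Tcf7l1, on the shifted chromosome 6, acts mainly as a repressor of WNT targets in pluripotent cells. It read 79.8, 85.3 and 75.8 and 30.2, 30.6 and 32.6 TPM and fell by 1.35 (± 0.11 SE, adjusted p = 2.9e-07 by edgeR). β-catenin itself, Ctnnb1, fell from a mean of 598 ± 19.2 to 444 ± 24.4 TPM. WNT ligand genes rose in 13 of 16 tested cases (19 listed), with a median of 3.24, and Wnt4, Wnt7a and Wnt16 did not pass. With the chromosome shift removed, Wnt7a, on chromosome 6, was called lower (-1.70, adjusted p = 0.046). Wnt6 was at the floor in EpiLC and read 61.7, 56.1 and 56.4 TPM in SOX2-OFF, at least 341-fold higher. Wnt3a, the ligand of caudal progenitors, read 0.21, 0.08 and 0.22 TPM in EpiLC, 9.52, 12.9 and 9.68 TPM in SOX2-OFF and 51.8, 48.1 and 75.9 TPM in CEpiLC. Wnt3, which starts the streak in the embryo, had the opposite order, with means of 12.3 ± 2.21 TPM in CEpiLC and 25.8 ± 1.33 TPM in SOX2-OFF (log2 difference 1.08, edgeR adjusted p = 1.2e-05). Because LGK974 was present, these transcripts say nothing of secreted ligand.

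Of 15 tested genes of the Nodal pathway, 6 rose, 3 fell and 6 did not pass (median 0.21), where 31.5% of all genes were called higher and 30.6% lower. Nodal, the ligand, read 0.75, 1.17 and 0.29 TPM in EpiLC and 65.8, 80.1 and 49.6 TPM in SOX2-OFF, with a log2 fold change of 6.39 (± 0.43 SE, adjusted p = 6.9e-08 by edgeR). Its co-receptor gene Tdgf1 (Cripto) read 0.72, 1.06 and 0.72 and 44.6, 50.3 and 46.6 TPM. Both exceeded their CEpiLC levels, by 2.24 and 2.06 on the log2 scale. Lefty2, a feedback inhibitor of Nodal, read 0.55, 0.25 and 0.18 TPM in EpiLC and 7.67, 7.85 and 13.7 TPM in SOX2-OFF. Among receptor and SMAD genes the called changes were a log2 fold change of 0.36 for the receptor gene Acvr2a and of -0.37 for the shared mediator Smad4. The ligand gene Gdf3, on chromosome 6, read 7.19, 7.54 and 6.76 TPM in EpiLC and 2.77, 2.72 and 1.62 TPM in SOX2-OFF and had the largest fall of the list (log2 fold change -1.54, edgeR adjusted p = 3.4e-05). Foxh1, the DNA-binding partner of the Nodal SMADs, read 124, 121 and 111 and 94.98, 104 and 101 TPM, a log2 fold change of -0.22 (edgeR adjusted p = 0.049). Its call was lost with the chromosome shift removed and when EpiLC replicate 1 or 2 or any 1 SOX2-OFF replicate was left out. In the BMP list, 11 of 15 genes rose and 2 fell (median 2.03). The ligand genes Bmp2, Bmp4, Bmp5, Bmp6 and Bmp7 all rose. Bmp2 read 0.45, 0.26 and 0.25 TPM in EpiLC and 5.33, 4.57 and 7 TPM in SOX2-OFF, while Bmp7 had means of 3.14 ± 0.523 and 23.9 ± 0.81 TPM. The target genes did not move as one. Msx2 read 0.55, 0.34 and 0.71 and 4.69, 6.11 and 6.37 TPM and Id3 read 92.7, 79.1 and 85.2 and 20.3, 26.4 and 26.1 TPM in EpiLC and SOX2-OFF, so Msx2 rose by 3.47 and Id3 fell by 1.79 on the log2 scale (edgeR adjusted p = 7.3e-06 and 2.5e-06). The other gene that fell was Chrd, with the limits given above for its call.

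FGF genes changed in both directions, 11 of 22 higher and 6 lower, where 31.5% of all genes were called higher and 30.6% lower. Fgf8, a streak ligand, read 0.33, 0.12 and 0.42 TPM in EpiLC and 23.5, 34.1 and 21.3 TPM in SOX2-OFF, at least 70.7-fold higher. Fgf5, a marker of primed epiblast, read 82.98, 81.3 and 74.2 and 16.6, 18.98 and 14.3 TPM and fell by 2.23 on the log2 scale (± 0.29 SE, adjusted p = 1.8e-05 by edgeR). Among the receptors, Fgfr2 fell from 49.8, 43.4 and 28.98 to 4.81, 5.19 and 4.23 TPM. Klb (β-Klotho), the co-receptor for endocrine FGFs, was at or under 3 counts in each EpiLC library and read 10.7, 13.7 and 10.1 TPM in SOX2-OFF, at least 117-fold higher. It read 0.02, 0 and 0.11 TPM in CEpiLC and 5.29, 6.54 and 11.8 TPM in SOX2-ON, and the log2 difference of SOX2-OFF over CEpiLC was 8.41 (edgeR adjusted p = 3.3e-07). Of the feedback targets of ERK signalling, Dusp6 and Spred1 rose (1.48 and 1.06). Fgfr1, on chromosome 8, was higher by 0.31 (edgeR adjusted p = 0.041) with overlapping groups, and its log2 fold change was -0.29 once the chromosome shift was removed. It also lost its call when any of 5 libraries was left out, EpiLC replicate 1 being the exception.

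Gfra1 was among the 10 largest falls. The others were Usp26, Foxd4, Xlr3b, Sez6, Pla2g1b, Kctd12b, Btbd17, Skida1 and Galnt16. Gfra1 (chr19:58235581-58455946), the receptor that binds GDNF, read 8.36, 7.53 and 7.98 TPM in EpiLC and 0.02, 0.05 and 0.15 TPM in SOX2-OFF, which left it barely detectable. It fell by 6.89 on the log2 scale (± 0.40 SE, adjusted p = 2.2e-08 by edgeR). The levels in CEpiLC (1.64, 0.89 and 0.66 TPM) and SOX2-ON (0.7, 0.77 and 0.66 TPM) lay between, and SOX2-OFF was lower than CEpiLC (log2 difference -4.08, ± 0.48 SE, adjusted p = 1.6e-05 by edgeR). The genes whose group means lay nearest were Galnt16 (distance 0.74 log2 CPM), Btbd17 (1.18), Myrf (1.45), Rasgrp2 (1.5) and Sox3 (1.52). Galnt16, an enzyme of protein glycosylation, read 21.4, 20.3 and 13.9 TPM in EpiLC and 0.54, 0.41 and 0.31 TPM in SOX2-OFF. Myrf, a membrane-bound transcription factor, read 45.9, 50.7 and 45.5 and 1.97, 1.75 and 1.31 TPM. Other GDNF receptor genes did not follow Gfra1 as a group. Ret, the kinase that signals for all the GDNF co-receptors, fell from 1.33, 1.14 and 1.86 to 0.49, 0.44 and 0.36 TPM, and Gfra2, which prefers neurturin, rose from 0.52, 0.58 and 0.61 to 2.71, 2.54 and 6.54 TPM. Of 8 tested genes (10 listed), 1 rose, 4 fell and 3 did not pass (31.5% of all genes were called higher and 30.6% lower). A second gene, Artn, became called upwards under limma-voom, with the chromosome shift removed, and without EpiLC replicate 2 or SOX2-OFF replicate 3. The genes Usp26, Pla2g1b and Xlr3b were low in both groups of the SOX2 TetON line. Usp26, a deubiquitinase gene on chromosome X, read 16.7, 17.2 and 11.1 TPM in EpiLC, 22.6, 26.3 and 18.8 TPM in CEpiLC, 0.08, 0.05 and 0 TPM in SOX2-OFF and 0.08, 0.16 and 0.03 TPM in SOX2-ON. Pla2g1b, a secreted phospholipase, read 94.3, 90.3 and 90.6 TPM in EpiLC and 1.63, 1.1 and 0.5 TPM in SOX2-OFF, with 137, 113 and 117 TPM in CEpiLC and 9.93, 7.45 and 2.72 TPM in SOX2-ON. Xlr3b shares reads with near-identical copies, so that its value is uncertain.

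Formative and primed epiblast genes fell without exception, 16 of 16 (30.6% of all genes were called lower), with a median log2 fold change of -3.46. Otx2, the head and epiblast homeobox factor, had means of 165 ± 11.4 TPM in EpiLC and 4.84 ± 0.816 TPM in SOX2-OFF, and Pou3f1 (OCT6) had means of 98.7 ± 11.98 and 4.97 ± 1.72 TPM. Foxd3, a forkhead factor of the epiblast, read 11.9, 10.5 and 14.7 TPM in EpiLC and 0.05, 0.19 and 0 TPM in SOX2-OFF. Foxd4 read 26.1, 15.3 and 9.73 TPM in EpiLC and was at the floor in SOX2-OFF, at least 96.01-fold lower. Sez6, a membrane protein best known from neurons, read 13.8, 14.4 and 13.5 and 0.22, 0.08 and 0.13 TPM. All 16 genes were called lower in CEpiLC against the same EpiLC libraries too, with a median of -4.04. Against CEpiLC, 4 of the 16 genes were called higher in SOX2-OFF and 3 lower, where 23.6% of all genes were called higher and 24.9% lower. Over the alternatives the higher count ranged from 2 to 4 and the lower count from 3 to 4. Fgf5 and Utf1 were among those higher (log2 differences of 1.72 and 1.65), and Sall2, Dnmt3a and Skida1 stood lower. The DNA methyltransferase Dnmt3b was the most abundant gene of the list, at 1354 ± 152 TPM in EpiLC and 131 ± 12.2 TPM in SOX2-OFF (a log2 difference of -3.35, ± 0.16 SE, adjusted p = 6e-09 by edgeR).

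**Figure D4:**
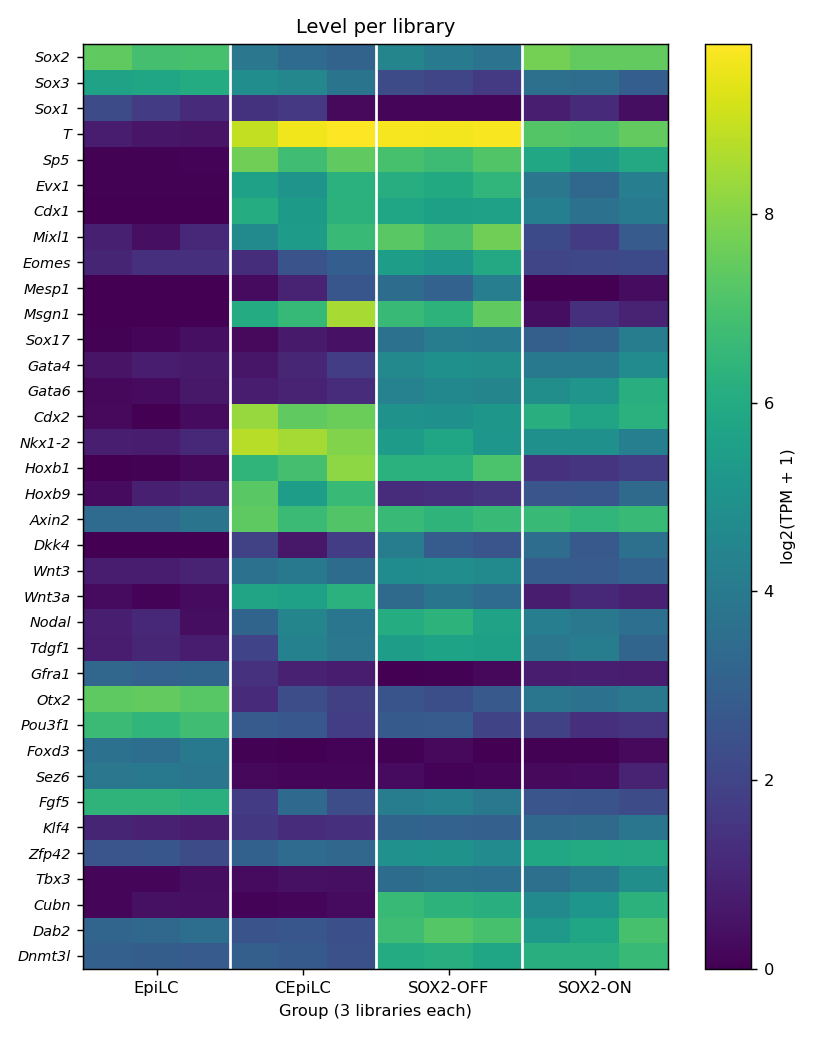
Level of 36 named genes (rows) in the 12 libraries (columns, 3 per group) as log2(TPM + 1), from dark at 0 to bright at the highest level. The formative genes Otx2, Pou3f1, Foxd3, Sez6 and Fgf5 were brightest in EpiLC, and naive and visceral endoderm genes such as Klf4, Zfp42, Cubn and Dab2 were brighter in both groups of the SOX2 TetON line than in the wild-type groups.

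Naive pluripotency genes were higher in SOX2-OFF for the most part. Of 12 tested, 10 rose and 1, Klf2, fell, with a median of 1.98. Klf4 read 1.03, 0.88 and 0.73 TPM in EpiLC and 7.83, 7.43 and 7.06 TPM in SOX2-OFF, and Zfp42 (REX1) read 5.02, 5.17 and 3.89 and 30.03, 31.5 and 25.7 TPM. Tbx3, which also marks primitive endoderm and mesoderm, read 0.14, 0.1 and 0.3 and 10, 11.9 and 10.8 TPM. These levels stood beside still higher ones in SOX2-ON, at 8.88, 9.49 and 13.3 TPM for Klf4 and 57.99, 62.9 and 58.8 TPM for Zfp42. Nanog, on chromosome 6, rose by 1.66 (edgeR adjusted p = 0.0076) but was not called once the chromosome shift was removed (1.10, adjusted p = 0.058), and Dppa3, on the same chromosome, lost its call in the same way (0.95, adjusted p = 0.051). Klf2 fell from 7.52, 5.36 and 11.7 to 1.44, 0.87 and 1.63 TPM. Of 9 general pluripotency genes, 5 fell, 1 (Tdgf1) rose and 3 did not pass, where 30.6% of all genes were called lower and 31.5% higher. Pou5f1 (OCT4) had means of 887 ± 66.6 TPM in EpiLC and 851 ± 71.98 TPM in SOX2-OFF, a log2 difference of -0.02 (± 0.10 SE, adjusted p = 0.88 by edgeR). Lin28a, an RNA-binding protein that blocks let-7 maturation, fell by 0.90 from a mean of 509 ± 30.2 to 269 ± 9.12 TPM. Dppa2, one of those that did not pass, became a second rise without EpiLC replicate 3 or SOX2-OFF replicate 2.

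Neural progenitor genes were mostly low in both groups and lower in SOX2-OFF. Of 11 tested (13 listed), 7 fell, 1 rose and 3 did not pass, with a median of -2.64 (-1.68 with 2 bounds). Six3, a forebrain homeobox gene, read 8.47, 5.16 and 0.91 TPM in EpiLC and 0.03, 0.14 and 0.05 TPM in SOX2-OFF. Pax6, of the neural plate, read 2.4, 1.49 and 0.87 TPM and was at the floor in SOX2-OFF, at least 14.6-fold lower. Hes5, a target of Notch in neural progenitors, had means of 2.78 ± 0.537 and 0.27 ± 0.164 TPM. The gene that rose, Pax3, stayed under 1 TPM in SOX2-OFF, and its call was lost with limma-voom and without EpiLC replicate 1 or SOX2-OFF replicate 1. Nes (nestin) was the most abundant, with 113 ± 12.4 and 78.4 ± 9.15 TPM and a fall of 0.51 on the log2 scale.

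Genes of visceral endoderm, the extraembryonic layer that takes up and carries nutrients, rose in 7 of 10 tested cases (13 listed). Cubn (cubilin), the uptake receptor, read 0.14, 0.35 and 0.33 TPM in EpiLC and 100.1, 80.6 and 70.5 TPM in SOX2-OFF, with a log2 fold change of 8.30 (± 0.49 SE, adjusted p = 2.3e-08 by edgeR). Its partner Amn (amnionless) read 0.72, 0.96 and 0.37 and 19.4, 27.7 and 23.4 TPM. Hnf4a, a master regulator of this lineage, was at the floor in EpiLC, read 2.1, 2.26 and 2.95 TPM in SOX2-OFF and was at least 32.2-fold higher. None of these was high in CEpiLC, where Cubn read 0.08, 0.14 and 0.22 TPM and Amn 0.22, 0.33 and 0.81 TPM, and SOX2-OFF exceeded CEpiLC in 8 of the 10 genes. In SOX2-ON, Cubn read 24, 34.2 and 77.4 TPM. Of the secreted products that define mature visceral endoderm, Afp was at no more than 0.05 TPM in every EpiLC and SOX2-OFF library. Ttr rose from 0, 0.19 and 0 TPM in EpiLC to 0.76, 2.96 and 1.77 TPM in SOX2-OFF, at least 5.91-fold higher (edgeR adjusted p = 0.0027). It had a test under 15 alternatives, where genes such as Cubn had 16. Of the genes that fell, Rbp4 went from 5.64, 7.44 and 5.25 to 1.85, 2.08 and 2.02 TPM, and the call of Trf was lost with DESeq2, with limma-voom and without EpiLC replicate 1 or 3 or any 1 SOX2-OFF replicate.

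Adhesion genes changed in both directions. Cdh2 (N-cadherin) rose from a mean of 35.4 ± 7.02 to 96.3 ± 28.2 TPM (log2 fold change 1.46, ± 0.24 SE, adjusted p = 0.00015 by edgeR), whereas Cdh1 (E-cadherin), on chromosome 8, had means of 415 ± 16.8 TPM in EpiLC and 417 ± 65.1 TPM in SOX2-OFF (a difference of 0.03 on the log2 scale, edgeR adjusted p = 0.8), and was called lower once the chromosome shift was removed (-0.57, adjusted p = 0.00017). Snai1 read 3.78, 2.31 and 5.67 and 28.1, 27.1 and 53.1 TPM in the groups. Fn1 (fibronectin), a matrix protein that mesoderm migrates on, read 51.1, 49.5 and 71.8 TPM in EpiLC and 390.2, 274 and 402 TPM in SOX2-OFF. Epithelial genes rose beside them. Cldn4 (claudin 4) read 34.4, 46.2 and 37.3 and 225, 206 and 189.8 TPM, and the keratin genes Krt8, Krt18 and Krt19 rose by 2.40, 1.56 and 2.21 on the log2 scale. Epcam fell from 234, 275 and 304 to 168, 177 and 159 TPM, and Cldn7, on chromosome 11, fell by 0.87 but was not called with the shift removed (adjusted p = 0.14). Over 18 genes, 11 rose, 3 fell and 4 did not pass (median 0.92), where 31.5% of all genes were called higher and 30.6% lower.

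Retinoic acid genes were split. Of 11 tested (13 listed), 4 rose, 1 fell and 6 did not pass, where 31.5% of all genes were called higher and 30.6% lower. Limma-voom called 2 higher, and the fit of the 6 libraries alone called 3 lower. Crabp2, which carries retinoic acid to the nucleus, read 261, 263 and 217 TPM in EpiLC and 71.7, 70.3 and 60.3 TPM in SOX2-OFF, and fell by 1.84 on the log2 scale (± 0.14 SE, adjusted p = 1.6e-07 by edgeR). Cyp26a1, the enzyme that degrades retinoic acid in the caudal embryo, read 11.98, 13.1 and 3.68 TPM in EpiLC, 1.01, 2.45 and 10.7 TPM in CEpiLC, 27.7, 29.8 and 53.96 TPM in SOX2-OFF and 0.51, 0.41 and 1.18 TPM in SOX2-ON. It stood highest in the 3 SOX2-OFF libraries. Among DNA methylation enzymes, Dnmt3b and Dnmt3a fell and Dnmt3l, their catalytically inactive partner, read 6.95, 6.41 and 5.97 TPM in EpiLC and 64.6, 70.98 and 55.2 TPM in SOX2-OFF, a log2 fold change of 3.32 (± 0.17 SE, adjusted p = 8e-09 by edgeR). Dnmt3l was also high in SOX2-ON, at 70.8, 69.4 and 98.2 TPM, and low in CEpiLC, at 6.88, 5.82 and 4.37 TPM. Of the 9 enzymes, 2 rose, 3 fell and 4 did not pass, against the same 31.5 and 30.6% of all genes. The other rise, Tet2, lost its call without EpiLC replicate 3 or SOX2-OFF replicate 1, and 5 of the 9 fell under library-size scaling, with only the 6 libraries fitted or with the chromosome shift removed.

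Cell cycle genes changed in both directions. Ccnd2 (cyclin D2) read 8.5, 9.4 and 9.77 TPM in EpiLC and 127, 117 and 118 TPM in SOX2-OFF (a log2 difference of 3.73, ± 0.07 SE, adjusted p = 2.7e-12 by edgeR). The inhibitor genes diverged. Cdkn1a (p21) read 66.4, 54.7 and 61.5 and 389, 373 and 422 TPM, and Cdkn2a, which encodes p16 and p19ARF, read 4.57, 5.69 and 8.67 and 93.9, 90.7 and 93.8 TPM. Cdkn1c (p57), an imprinted gene, fell from 15.3, 13.97 and 17.2 to 1.43, 1.22 and 1.45 TPM. Cdkn2a was high and Cdkn1c low in both groups of the SOX2 TetON line, at 7.01 ± 2.71 and 25.6 ± 4.56 TPM in CEpiLC and 83.2 ± 8.72 and 2.52 ± 0.401 TPM in SOX2-ON, whereas Cdkn1a was high in every CHIR99021-treated group. Mycn, the main Myc gene here, went from a mean of 90.2 ± 2.12 TPM in EpiLC to 20.4 ± 0.977 TPM in SOX2-OFF. Of the 12 genes, 7 rose and 3 fell (31.5% of all genes were called higher and 30.6% lower). Of 10 p53 targets, Cdkn1a included, 6 rose and 1 (Bbc3) fell, with a median of 0.33. Trp53inp1 and Mdm2 rose by 0.68 and 0.66 on the log2 scale.

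Counts of called glucose genes depended on the chromosome shift. Of 19 genes, 7 rose and 7 fell, where 31.5% of all genes were called higher and 30.6% lower. With the shift removed, 3 rose and 9 fell. Slc2a1 (GLUT1) read 1364, 1295 and 1259 TPM in EpiLC and 195, 189 and 174 TPM in SOX2-OFF, and fell by 2.79 on the log2 scale (± 0.10 SE, adjusted p = 6.7e-10 by edgeR). The other transporter, Slc2a3 (GLUT3), on chromosome 6, read 239, 222 and 142 and 579, 656 and 545 TPM and rose by 1.58, or by 1.02 with the shift removed (adjusted p = 0.00054). The glycolytic enzymes Gapdh and Tpi1, also on chromosome 6, were higher by 0.18 and 0.26, and lower with the shift removed (-0.38 and -0.29). Ldhb, on the same chromosome, rose by 1.57 and still rose by 1.01 after removal, with means of 224 ± 11.9 TPM in EpiLC and 654 ± 73.3 TPM in SOX2-OFF. The call of Tpi1 was lost without EpiLC replicate 1 or 3 or SOX2-OFF replicate 1 or 2.

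**Figure D5:**
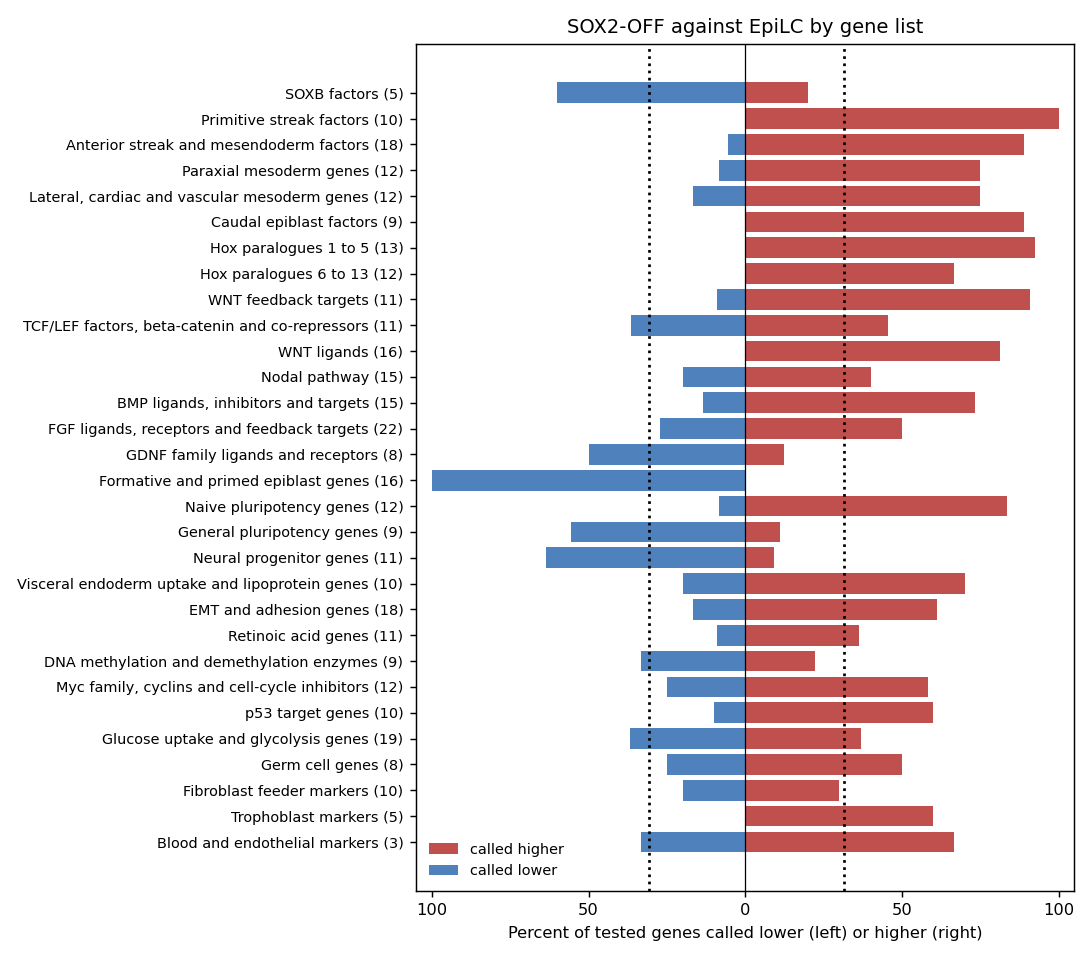
Percent of the tested genes of each list that were called higher (right) or lower (left) in SOX2-OFF against EpiLC, with the number tested beside the name; dotted lines mark 31.5% and 30.6%, the shares over all genes. Primitive streak, Hox 1 to 5 and WNT feedback lists reached over 90% on the right, and the formative list 100% on the left.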

How the data were processed

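RNA-seq was made from polyadenylated RNA as strand-specific single-end libraries. Per the study's methods, the authors trimmed reads with cutadapt (version 1.16) and quantified them with RSEM (version 1.3.0) running STAR (version 2.5.2a) against mm10 and RefSeq genes. The authors deposited 1 table with the estimated counts of RSEM (expected counts, which need not be whole) and TPM for each library. Here the expected counts were rounded to whole numbers, filtered with filterByExpr, scaled by TMM and fitted over all 12 libraries in 1 model with edgeR (version 4.0.16, quasi-likelihood test), with Benjamini-Hochberg adjustment over 14196 genes and calls at an adjusted p of at most 0.05. The deposited TPM values are printed as levels and were not tested. Lower bounds of folds set each library of the lower group to 3 counts. Alternatives used limma (version 3.58.1), DESeq2 (version 1.42.0) and R (version 4.3.3). The members and the 30 gene lists were chosen with earlier results of these data known.

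Genes given by their values in every library were the 4 markers, the 3 called genes of each list with the largest change in each direction, the 10 largest called changes over all genes, Hprt and the 5 genes nearest to each marker by Euclidean distance of centred group means. Others were named as members of a list, and those of uncertain calls were singled out after their values were seen. Some genes that these rules would name are not reported here. Promoters came from RefSeq (GRCm38.p6), which held a sequence for 11004 of the tested genes. Gene positions were also taken from RefSeq on that build. Replicate numbers in the labels were checked for pairing by the correlation of same-numbered libraries' deviations from their group means. It was -0.02, 0.11 and -0.01 for SOX2-OFF and EpiLC, which were treated as unpaired, as were SOX2-OFF and CEpiLC (0.05, 0.18 and 0.17). It was 0.12, 0.13 and 0.10 for CEpiLC and EpiLC, where each passed 0.1 and the numbers count as paired. This rule cannot exclude pairing in the comparisons treated as unpaired, where some values also passed 0.1. The main fit still carried no replicate term for any comparison. A fit with the replicate number as a block is given among the alternatives below.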

Additional observations from a re-analysis of the deposited data

How the results depend on the processing

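The 8819 genes called between SOX2-OFF and EpiLC were 8826 with RLE scaling, 8788 with library size alone, 8983 without the count filter, 8715 with at least 10 counts, 8608 with DESeq2, 8724 with limma-voom, 9031 with only the 6 libraries, 7056 with a threshold of 0.01 and 8273 with the chromosome shift removed. Leaving out each library in turn gave 7974 to 8186. With the threshold at 0.01, CEpiLC against EpiLC had 3968 calls, 2072 higher and 1896 lower. With the replicate number as a block, 9143 genes were called between SOX2-OFF and EpiLC. The count was 6491 between CEpiLC and EpiLC and 7285 between SOX2-OFF and CEpiLC (5994 and 6885 without the block). Within lists the block moved small counts. Over EpiLC, Sox14 and Foxh1 were then not called and Hoxd4 and Dppa2 were called higher. Against CEpiLC, Evx1 was called higher (0.55, adjusted p = 0.0017), and 4 genes of Hox groups 6 to 13 were higher in place of 2. Of 151 called genes named here, 134 kept call and direction under every alternative run, and 3 changed direction, all with the chromosome shift removed: Fgfr1 (-0.29), Tpi1 (-0.29) and Gapdh (-0.38). Of 14 uncalled genes, 5 changed direction. Removing the shift gave Wnt16 -0.27, Pou5f1 0.026 and Cdh1 -0.57. With limma-voom Greb1 was -0.0034. Over the fits that leave out a library, Greb1 ranged from -0.14 to 0.13, Wnt4 from -0.19 to 0.18, Pou5f1 from -0.059 to 0.026 and Cdh1 from -0.048 to 0.14, and library size alone gave Cdh1 -0.0036. For SOX2-OFF against CEpiLC, removing the shift turned Axin2 to 0.028 and Evx1 to -0.068, and over the fits without 1 library T ranged from -0.016 to 0.41. The causes were not tested beyond the shift removed by construction. Depth limits the genes near 0 in EpiLC, whose folds are lower bounds only.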

Other observations

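Lists for cell types that the cultures could also hold were followed in the same way. Their counts stand beside 31.5% of all genes called higher and 30.6% called lower. Of 10 fibroblast markers, kept because the stem cells had grown on feeders, 3 were called higher and 2 lower in SOX2-OFF against EpiLC, with a median log2 fold change of -0.04. The contractile gene Acta2 read 19.7, 23.4 and 66.7 TPM in EpiLC and 4.67, 3.73 and 3.12 TPM in SOX2-OFF, while Col6a3, a collagen chain, had means of 0.22 ± 0.0346 and 1.27 ± 0.543 TPM. The collagen genes Col1a1 and Col3a1 fell short of the threshold (the latter with a log2 fold change of -1.30). The count of rises on this list was 2 without EpiLC replicate 1 and 1 without SOX2-OFF replicate 1, and the count of falls was 4 in both cases.

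Of 8 trophoblast markers, 5 were tested and 3 rose (31.5% of all genes were called higher). Gata3, a factor of trophoblast and of amnion, read 0.06, 0.19 and 0.18 TPM in EpiLC, 0.04, 0 and 0.17 TPM in CEpiLC, 0.52, 0.84 and 1.04 TPM in SOX2-OFF and 0.57, 0.75 and 1.09 TPM in SOX2-ON. Tfap2a, a factor of surface ectoderm and trophoblast, read 0.32, 0.06 and 0.09 and 0.55, 1.03 and 0.76 TPM in EpiLC and SOX2-OFF. Of 8 blood and endothelial markers, 3 were tested. Cdh5 and Runx1 rose by 2.21 and 1.98 on the log2 scale, and Pecam1 fell by 1.17, a call lost without EpiLC replicate 1 or SOX2-OFF replicate 2 and with the chromosome shift removed. Of 10 germ cell genes, 8 were tested, 4 rose and 2 fell, where 31.5% of all genes were called higher and 30.6% lower. Prdm1, which starts the germ line and also acts in endoderm, read 0.23, 0.15 and 0.11 TPM in EpiLC and 0.49, 0.54 and 0.53 TPM in SOX2-OFF, and Dnd1, an RNA-binding protein of germ cells, read 7.41, 10.02 and 9.19 and 2.63, 2.7 and 2.85 TPM. The other fall, Mael, lost its call with limma-voom and without EpiLC replicate 3, SOX2-OFF replicate 2 or SOX2-OFF replicate 3.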
